A study of Mus musculus with 58 samples.

Results

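Promoters that carried trimethylated lysine 27 of histone H3 (H3K27me3) with little trimethylated lysine 4 (H3K4me3) were described in hematopoietic stem cells (HSCs) of old, lifelong calorie-restricted mice. Each of 31552 annotated transcripts had a signal for either mark in 2 libraries, as the mean coverage per base over the 2000 bp (H3K27me3) or 750 bp (H3K4me3) downstream of the transcription start site (TSS). A promoter was a member where H3K27me3 was at least 2 and H3K4me3 was below 10 in both libraries of each mark. This held for 2263 transcripts (7.17% of 31552), which start at 2174 distinct sites. A gene was counted as a member gene where at least 1 of its transcripts was a member and none had H3K4me3 of 10 or more in both libraries, which gave 1741 of 25127 genes (6.93%). By the same limits, 1331 transcripts had both marks (bivalent), 14100 had H3K4me3 alone, 13096 had neither, and 762 had replicates on different sides of a limit.

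H3K27me3 is written by Polycomb repressive complex 2 and is a hallmark of genes that a cell lineage keeps silent, above all the transcription factor genes that direct the development of other tissues. H3K4me3 marks the start sites of genes that are transcribed or ready to be, and promoters rich in CpG dinucleotides tend to carry it. Promoters that hold both are called bivalent and are common in stem cells, where the genes are held at a low level, whereas promoters with H3K27me3 and little H3K4me3 are usually read as stably silenced.

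The HSCs were sorted from bone marrow of wild-type male C57BL/6 mice as Lin-Sca1+Kit+ (LSK) CD34-Flk2-CD150+ cells. Histone marks, read here only in OCR mice, came from mice aged 24 to 26 months that had been fed 40% less than their ad libitum controls since young adulthood. RNA was measured in 4 OCR libraries, in 4 libraries of age-matched mice fed ad libitum (OAL) and in 2 of OCR mice returned to ad libitum feeding for 4 weeks (OCRRF). The young groups, aged 3 to 4 months, were fed ad libitum (YAL), restricted for a short term up to 40% (YCR), or restricted and refed for 4 weeks (YCRRF), with 4 RNA libraries each. Chromatin accessibility (ATAC-seq) covered OCR (4 libraries) and OCRRF (2), and binding of the transcription factor PU.1 covered OAL, OCR and OCRRF (2 each). A further RNA set used HSCs of aged mice given a lentiviral short hairpin RNA against Kdr, the receptor VEGFR2 (4 libraries), or a scrambled one (2). Those cells were re-sorted as LSK CD48-CD150+ donor cells from the marrow of irradiated young female recipients. The marks of OAL and young HSCs were not analysed here, so in those groups the promoters are members by their state in OCR HSCs only.

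To show what such promoters look like, the DNA from 250 bases before to 50 after the start is printed 5′ to 3′ on the gene's strand for the 4 member genes with the highest H3K27me3 and for 4 of those with the most RNA in OCR HSCs (sequence from RefSeq, build GRCm38.p6, the same as mm10). Capitals mark each CG, the CpG dinucleotide that is found in 99.3% of the 1222 member promoters with such a sequence and in 95.3% of all 18538. The highest H3K27me3 signals were at 2700054A10Rik, a noncoding transcript (chr17:13554045-13554344, minus strand), at Hoxa11os, the antisense transcript of Hoxa11 (chr6:52244993-52245292, plus), at Sox14, a transcription factor of interneurons (chr9:99876121-99876420, minus), and at Sp9, a zinc finger transcription factor of the forebrain and limb (chr2:73271676-73271975, plus). All 8 sequences end 50 bases into the first exon of the member transcript.
2700054A10Rik: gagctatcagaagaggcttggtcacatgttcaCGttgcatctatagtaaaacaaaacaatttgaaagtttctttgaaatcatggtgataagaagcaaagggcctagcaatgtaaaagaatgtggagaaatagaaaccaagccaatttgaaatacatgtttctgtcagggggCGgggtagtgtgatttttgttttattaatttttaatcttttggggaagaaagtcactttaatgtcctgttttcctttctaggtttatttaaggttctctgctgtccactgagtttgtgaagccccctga
Hoxa11os: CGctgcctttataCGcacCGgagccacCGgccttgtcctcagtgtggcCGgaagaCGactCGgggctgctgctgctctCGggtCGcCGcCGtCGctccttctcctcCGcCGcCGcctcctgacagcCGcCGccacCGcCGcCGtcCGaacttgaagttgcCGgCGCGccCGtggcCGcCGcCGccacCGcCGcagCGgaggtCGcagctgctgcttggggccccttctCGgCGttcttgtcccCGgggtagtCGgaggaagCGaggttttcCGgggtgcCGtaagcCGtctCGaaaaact
Sox14: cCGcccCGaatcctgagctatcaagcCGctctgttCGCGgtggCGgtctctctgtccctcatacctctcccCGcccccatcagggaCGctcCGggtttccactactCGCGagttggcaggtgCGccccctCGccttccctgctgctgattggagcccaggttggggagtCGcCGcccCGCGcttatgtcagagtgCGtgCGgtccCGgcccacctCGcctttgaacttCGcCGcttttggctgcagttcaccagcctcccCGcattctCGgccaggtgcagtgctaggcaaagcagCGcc
Sp9: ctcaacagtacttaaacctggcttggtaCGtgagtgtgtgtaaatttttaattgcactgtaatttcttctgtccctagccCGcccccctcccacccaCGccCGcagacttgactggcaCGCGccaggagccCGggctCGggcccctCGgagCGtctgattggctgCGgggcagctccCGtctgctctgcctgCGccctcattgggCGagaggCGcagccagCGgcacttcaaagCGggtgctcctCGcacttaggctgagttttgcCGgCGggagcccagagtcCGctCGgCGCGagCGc
The Hoxa11os sequence held 41 CpGs and those of Sox14 and Sp9 held 26 and 25, whereas that of 2700054A10Rik held 2. The member genes with the most RNA and a RefSeq sequence were Sox6, a transcription factor of cartilage and red cell development (chr7:116038695-116038994, minus), Myo1h, an unconventional myosin (chr5:114289003-114289302, plus), Samd11, a SAM domain protein known from photoreceptors (chr4:156255293-156255592, minus), and Chrnb2, the beta 2 subunit of the nicotinic acetylcholine receptor (chr3:89764583-89764882, minus).
Sox6: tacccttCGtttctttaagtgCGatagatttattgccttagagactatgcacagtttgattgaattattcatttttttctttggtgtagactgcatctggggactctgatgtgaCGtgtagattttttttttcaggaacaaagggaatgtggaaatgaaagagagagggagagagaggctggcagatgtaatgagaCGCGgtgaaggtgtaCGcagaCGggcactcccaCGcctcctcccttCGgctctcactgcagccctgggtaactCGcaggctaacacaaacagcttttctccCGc
Myo1h: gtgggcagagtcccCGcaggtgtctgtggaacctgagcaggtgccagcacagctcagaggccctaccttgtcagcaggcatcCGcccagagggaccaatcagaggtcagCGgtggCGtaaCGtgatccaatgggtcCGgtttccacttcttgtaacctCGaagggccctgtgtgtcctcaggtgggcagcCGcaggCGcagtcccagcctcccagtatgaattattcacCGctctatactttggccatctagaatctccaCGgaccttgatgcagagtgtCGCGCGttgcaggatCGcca
Samd11: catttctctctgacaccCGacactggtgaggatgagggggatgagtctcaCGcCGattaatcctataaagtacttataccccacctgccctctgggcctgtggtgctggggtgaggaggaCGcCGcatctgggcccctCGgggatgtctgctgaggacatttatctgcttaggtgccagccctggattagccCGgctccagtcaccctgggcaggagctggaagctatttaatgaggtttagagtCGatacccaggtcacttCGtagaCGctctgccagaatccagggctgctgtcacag
Chrnb2: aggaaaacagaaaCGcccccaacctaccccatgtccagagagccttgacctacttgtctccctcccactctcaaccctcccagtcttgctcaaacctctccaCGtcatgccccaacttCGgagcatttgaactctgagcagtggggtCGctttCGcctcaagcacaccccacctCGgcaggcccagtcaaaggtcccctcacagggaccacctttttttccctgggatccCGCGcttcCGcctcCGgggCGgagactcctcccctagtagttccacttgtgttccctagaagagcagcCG
These 4 held 11, 15, 10 and 12 CpGs, between the 2700054A10Rik sequence and the other 3 of the high H3K27me3 set.

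The members were chosen by these signals, which are given as a description. Among members, the median H3K27me3 signal was 4.46 and 4.28 in the 2 libraries, close to the 4.36 and 4.19 of bivalent promoters and far from the 0.171 and 0.179 of promoters with H3K4me3 alone. Median H3K4me3 was 3.55 and 3.30 in members, 16.3 and 15.4 in bivalent promoters and 0.332 and 0.350 where neither mark was called. Members thus mostly held some H3K4me3. Its mean over the 2 libraries was below 2 at 815 members, from 2 to below 5 at 652, and 5 or more at 796. Of all transcripts with H3K27me3 in both libraries, 60.03% had low H3K4me3, and of all with low H3K4me3, 14.5% had H3K27me3. Only 2 members differed between the H3K27me3 libraries by more than 1.5 times.

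**Figure D1:**
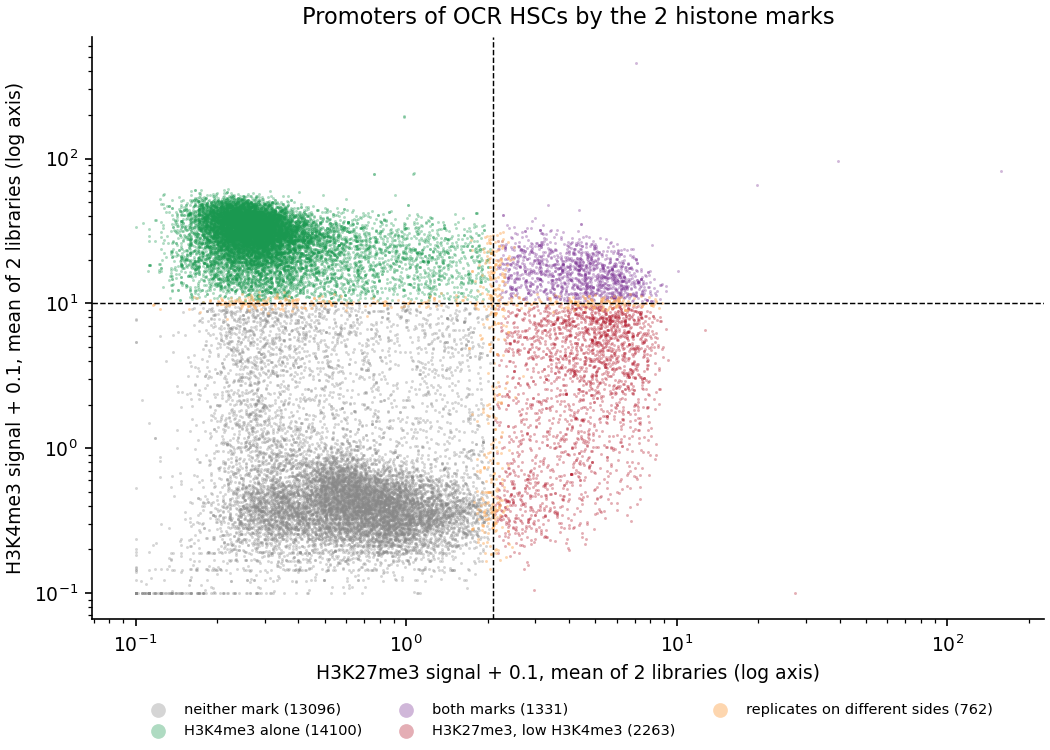
H3K27me3 signal (x axis) against H3K4me3 signal (y axis) of 31552 promoters in OCR HSCs, each the mean of 2 libraries plus 0.1 on log axes, with dashed lines at the limits of 2 and 10. The 2263 members fill the lower right field from the H3K4me3 limit downward, and 1 point (2700054A10Rik, H3K27me3 26.3 and 28.4) lies far to the right of the other members.

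2700054A10Rik had H3K27me3 signals of 26.3 and 28.4 and an H3K4me3 signal of 0 in both libraries. Of 40 stretches of 50 bases in its H3K27me3 window, 22 (55.0%) were found elsewhere in the genome, with up to 7 copies, so reads of other copies may be placed there. The next transcript was of Sfi1 (12.4 and 12.8), another transcript of which was bivalent, so that Sfi1 is no member gene. Among member genes, next came Hoxa11os (9.51 and 8.84), Sox14 (9.15 and 8.98), Sp9 (8.30 and 9.35), the noncoding C130021I20Rik (9.30 and 8.26) and Nkx2-1, the transcription factor of thyroid, lung and ventral forebrain (9.15 and 8.25). Cdx2, which specifies intestinal epithelium, had 8.54 and 8.73. The motor neuron gene Isl2 (8.45 and 8.72), the neural zinc finger gene Zic1 (9.27 and 7.83) and Tbr1 of cortical projection neurons (8.59 and 8.50) complete the first 10. Apart from 2700054A10Rik and C130021I20Rik, which were noncoding, and Hoxa11os, all of these encode transcription factors of other tissues.

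Near the limits, the values on either side were alike. Just inside the H3K27me3 limit were Ptprf (2.21 and 2.00), Tnfrsf8 (2.06 and 2.00) and Tbx22 (2.01 and 2.11), and just outside were Tcf7 (2.00 and 2.34), Arpp21 (2.19 and 2.00) and Krt2 (2.00 and 2.26), each of which fell short by less than 0.01 in 1 library. Just inside the H3K4me3 limit were Erich5 (9.98 and 9.12) and Myzap (9.98 and 8.19), and just outside were Pdgfa (10.0 and 9.28), Fgf9 (10.0 and 9.86) and Gpr25 (10.0 and 9.72). The genes Kdr, Bmpr1a and Bmp4, on which the study centres, were not members. Kdr was grouped with H3K4me3 alone (H3K27me3 1.67 and 1.87, H3K4me3 26.2 and 21.2). Its H3K27me3 was under the limit of 2 but above that group's medians of 0.171 and 0.179. Bmpr1a (2.61 and 3.40, 26.1 and 21.1) and Bmp4 (2.79 and 2.71, 11.8 and 11.9) had both marks. The paper reports a rise of H3K27me3 at these genes in OCR relative to OAL, which was not compared here.

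Regulators of the development of other organs were the largest of the listed groups among the members, at 8.44% of member genes. Of 327 developmental transcription factor genes listed in 9 families, 147 (45.0%) were member genes and 87 (26.6%) were bivalent, against 6.93% and 4.39% of all genes. They made up 44 of the 100 member genes with the highest H3K27me3, 115 of the highest 500 (23.0%) and 7 of the lowest 500 (1.40%). These shares and those below are descriptions without a test.

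Among 39 HOX cluster genes, which set position along the body axis, 18 (46.2%) were members, and their median H3K27me3 of 7.45 was the highest of the classes with 3 or more members. Hoxb13 had 9.08 and 7.94 and Hoxa11 had 8.22 and 8.57. All 18 were from the A, B, C and D clusters as Hoxa11, Hoxa13, Hoxb13, Hoxc5, Hoxc6, Hoxc8, Hoxc10 to Hoxc13, and 8 Hoxd genes, while 11 HOX genes had H3K4me3 alone. Other homeobox genes were members more often (70 of 120, 58.3%, with a further 34 bivalent), with Nkx2-1 and Cdx2 the highest. PAX genes, which direct organ rudiments, were members in 6 of 9 and bivalent in the other 3. Pax8 of thyroid and kidney had H3K27me3 of 7.72 and 7.72 with H3K4me3 of 0.958 and 0.738, and Pax9 had 7.37 and 7.07 with 7.67 and 8.96. T-box genes (7 of 16, 43.8%), led by Tbr1 and the heart gene Tbx20 (7.27 and 7.19), and tissue-specific basic helix-loop-helix genes (21 of 53, 39.6%), led by the neuronal Neurod2 (7.96 and 7.92) and by Tcf21 of kidney and heart mesenchyme (7.92 and 7.21), followed. SOX genes were members in 7 of 19, with Sox14 and the pluripotency factor Sox2 (7.31 and 6.90) highest. Forkhead genes were members in 10 of 44 (22.7%), with Foxd4 (8.51 and 7.99) and Foxl1 (8.34 and 8.08) highest, and 14 had H3K4me3 alone. The Zic, Gli, Osr, Sall and Tshz zinc finger genes were more often bivalent (9 of 21) than members (6), with Zic1 and the kidney regulator Wt1 (7.74 and 7.13) highest. Of the GATA genes, Gata4 and Gata5 of heart and endoderm were members (8.57 and 8.16, and 7.09 and 5.61).

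Secreted signals of the embryo were a second group, more so than their receptors. Of 19 Wnt ligands, 13 (68.4%) were members, 4 were bivalent and none had H3K4me3 alone. The highest were Wnt1 (7.59 and 7.51) and Wnt16 (7.11 and 6.43). Of 10 Frizzled receptors, which bind Wnt proteins, 1 was a member (Fzd10, 5.37 and 5.74) and 8 had H3K4me3 alone. Secreted Wnt antagonists were members in 6 of 12, with Sfrp5 (5.75 and 5.43) and Notum (5.87 and 4.54) highest. All 3 hedgehog ligands, Ihh (7.69 and 6.82), Dhh (6.84 and 7.16) and Shh (6.68 and 6.40), were among the 4 members of 10 hedgehog pathway genes. FGF ligands were members in 7 of 22, led by Fgf4 (7.18 and 6.68) and Fgf20 (6.82 and 5.99). Ligands of the BMP, GDF, activin and Nodal group were members in 8 of 30, led by Nodal (6.19 and 6.81) and Bmp3 (6.08 and 6.31), and their secreted antagonists in 4 of 13, led by Grem1 (6.00 and 5.15) and Chrdl2 (5.01 and 4.63). Of 16 BMP receptor and SMAD genes, 1 was a member, the type 1 receptor Acvrl1 (6.24 and 6.44), and 11 had H3K4me3 alone. Ephrins and Eph receptors (6 of 22) had Epha10 (6.39 and 5.92) and Ephb1 (4.84 and 4.78) highest. The semaphorin, plexin, slit, robo and netrin genes, which guide axons, were more often bivalent (20 of 49) than members (5), the highest being Slit1 (6.50 and 6.20) and Dcc (5.74 and 5.32). The same held for receptor tyrosine kinases of the VEGF, PDGF, FGF and Trk families (11 of 26 bivalent, 4 members), among them the neurotrophin receptor Ntrk3 (5.46 and 5.84).

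Genes of neurons formed the next group, with 115 members among 263 listed genes (43.7%) and a lower bivalent share (43 genes, 16.3%). G protein-coupled receptors for amines, acetylcholine, glutamate and peptides were members in 39 of 73 (53.4%), led by the adrenergic receptor Adra2b (7.70 and 6.89) and the muscarinic receptor Chrm4 (7.35 and 6.86). Ligand-gated receptors were members in 24 of 58 (41.4%), led by the nicotinic subunit Chrna3 (7.16 and 6.87) and the glutamate receptor subunit Grin2c (6.44 and 6.05). Potassium channels were members in 38 of 92 (41.3%), led by Kcnk4 (6.26 and 7.28) and Kcnk3 (7.06 and 6.44), and voltage-gated sodium and calcium channels in 14 of 40 (35.0%), led by Cacna1e (6.86 and 6.97) and Cacna1i (5.47 and 4.97). Among 335 solute carriers, 42 (12.5%) were members, and the highest were the vesicular GABA transporter Slc32a1 (7.91 and 7.36) and the thyroid iodide transporter Slc5a5 (8.06 and 6.91).

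Among genes of epithelium, matrix and adhesion, collagens, keratins and clustered protocadherins were members at signals below the members' median of 4.43, and the other classes were not. Collagens were members in 15 of 44 (34.1%) with a median H3K27me3 of 2.85, with Col15a1 (6.48 and 5.36) and Col19a1 (4.96 and 4.93) highest. Keratins were members in 16 of 51 (31.4%) with a median of 2.40 and none was bivalent. Krt19 (5.51 and 5.53) and Krt12 (3.50 and 3.49) were the highest. ADAMTS proteases were members in 7 of 24, led by Adamts18 (5.05 and 6.38) and Adamtsl3 (6.17 and 4.94). Adhesion G protein-coupled receptors were members in 5 of 27, with Adgrb1 (7.17 and 6.51) and Adgrv1 (5.14 and 5.07) highest. Of 23 classical cadherins, 3 were members, with Cdh13 (6.52 and 6.00) and Cdh3 (5.90 and 5.94) highest. Clustered protocadherins were members in 8 of 58, with a median of 3.18, led by Pcdhac1 (5.10 and 4.53) and Pcdha11 (4.59 and 4.34), and most (42) had neither mark. Other protocadherins were members in 3 of 12, led by Pcdh8 (6.90 and 6.83) and Pcdh12 (5.13 and 4.18).

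Of 108 listed genes of blood, 3 (2.78%) were member genes, against 6.93% of all genes. Of 20 HSC genes, none was a member gene and 19 had H3K4me3 alone. Erythroid genes (15), and T and NK cell genes (25) also had no member, but most of them had neither mark (14 and 19). The B cell gene Pax5, the master factor of B cell commitment, was the member among 14 B cell genes (4.10 and 4.39), Mmp9 among 22 granulocyte and monocyte genes (6.02 and 5.72) and Gp1bb among 12 megakaryocyte genes (2.49 and 2.56). By class these are 7.14%, 4.55% and 8.33%, near the share over all genes, and each rests on 1 gene. Of 16 stromal and bone genes, 4 were members, with the intermediate filament gene Nes (6.87 and 6.21) and Col3a1 (3.24 and 3.09) highest, and of 14 endothelial genes Sox17 was (4.32 and 4.36). Chemokines and interleukins were members in 2 of 65 (Il11 and Il33) and Notch receptors and ligands in 1 of 9 (Dll3). Cdkn2a, the locus of the senescence inhibitors p16 and p19, was the member among 7 CDK inhibitors (6.36 and 5.50). Of the published consensus HSC aging signature that the study used, none of the 179 rising and 39 falling genes found in the promoter tables was a member gene. Of the rising genes 2 had a member transcript, and 7 rising and 2 falling genes were bivalent. Of 1464 olfactory and vomeronasal receptor genes, which are silent outside sensory epithelium, 2 were members (0.137%), Olfr95 and Olfr222, and 1454 had neither mark. C2H2 zinc finger genes named Zfp were members in 7 of 363 (1.93%), with Zfp105 (5.34 and 5.10) and Zfp811 (4.90 and 4.75) highest, and ribosomal protein (73) and proteasome (39) genes in none. In all, 437 member genes (25.1%) were in at least 1 of the listed classes and 1304 in none.

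**Figure D2:**
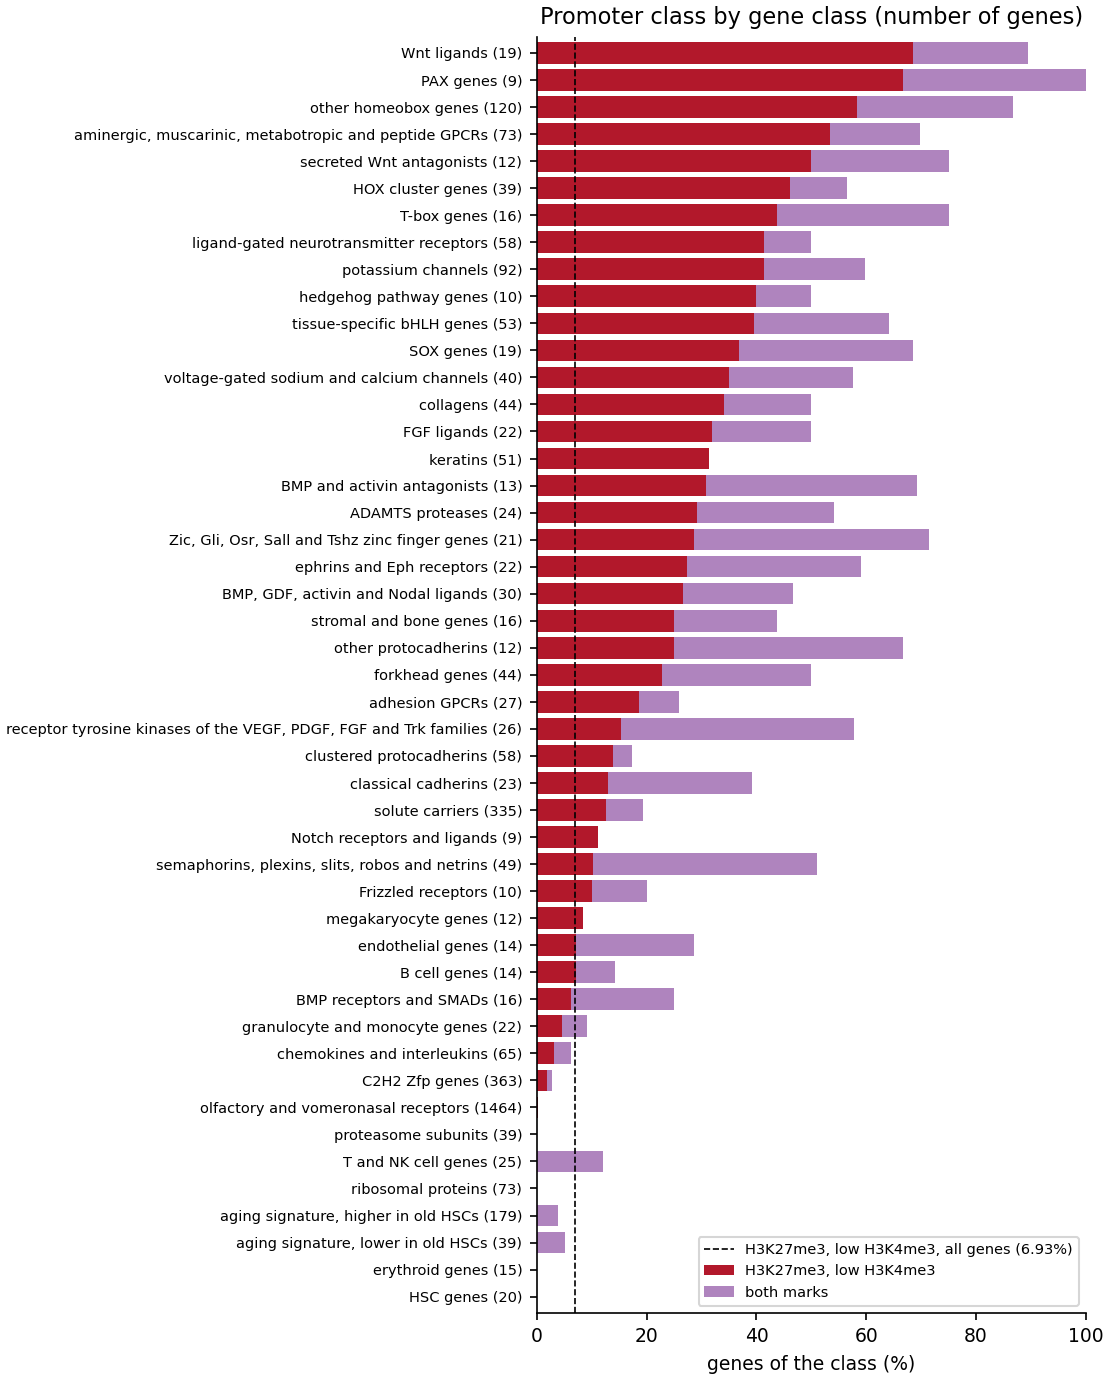
Share of the genes of each class (x axis, percent; number of genes in brackets) that were member genes (red) or bivalent (purple) in OCR HSCs, with a dashed line at the 6.93% of all genes that were members. Wnt ligands (68.4%), PAX genes and other homeobox genes lie at the top, and HSC, erythroid, ribosomal and proteasome genes at 0.

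Member genes lay next to each other on the chromosomes more often than other genes. In gene order along each chromosome, 22.4% of member genes were followed by another member, against 5.79% of non-members. In all, 647 of 1741 (37.2%) were in 258 runs of 2 or more, of which 28 held at least 4. The longest run had 10 genes over 203 kb of chromosome 1 (74748955 to 74951672), from Prkag3 through Wnt6, Wnt10a, Cdk5r2, Fev and Mir375 to Ihh. A run of 9 covered Hoxd8 to Hoxd1 on chromosome 2 (74705489 to 74762980), with the noncoding Haglr and Hoxd3os1, and runs of 7 held Hoxc13 to Hoxc10 with Hotair (chromosome 15) and Pax7 with its neighbors (chromosome 4). A run of 6 within 0.633 kb of chromosome 7 was the Mir290 cluster, the microRNAs of embryonic stem cells, whose windows overlap and so share reads. Smaller runs included Gsx1, Pdx1 and Cdx2 (5 genes, chromosome 5) and Gata5 with Mir1a-1 (5, chromosome 2). By chromosome, the share of genes that were members ran from 9.95% on chromosome 15 to 2.67% on the X, and none of 71 genes on the Y was a member.

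The CpG content of members lay between that of silent promoters without either mark and that of promoters with H3K4me3. The observed over expected CpG ratio, which compares the count of CG with that expected from the C and G content, had a median of 0.553 in members, 0.725 in bivalent promoters, 0.794 with H3K4me3 alone and 0.192 with neither. By a ratio of at least 0.6 with a GC content of at least 50%, 41.9% of member promoters were CpG-rich, against 66.5%, 74.4% and 5.41% in those groups and 45.1% of all. Within the members the content followed the marks that chose them. The median ratio at the members' own start sites was 0.365 where H3K4me3 was below 2, 0.595 from 2 to below 5, and 0.691 at 5 or more. By quartile of H3K27me3 it was 0.395, 0.523, 0.647 and 0.641 from the lowest to the highest. Over the 2000 bp in which H3K27me3 was read, members had 0.415, below bivalent promoters (0.610) and promoters with H3K4me3 alone (0.513).

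**Figure D3:**
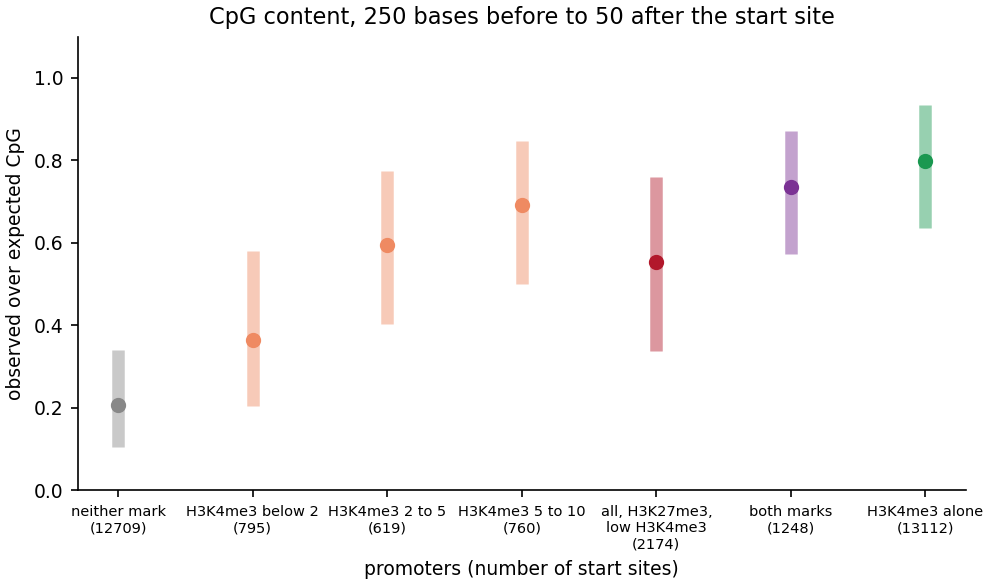
Observed over expected CpG ratio (y axis) in the 300 bases at the start site, by promoter group (x axis, number of start sites in brackets), with the median as a point and the range from the 25th to the 75th percentile as a bar. Members rise from a median of 0.365 at H3K4me3 below 2 to 0.691 at 5 or more, all above the group with neither mark and below bivalent promoters.

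Accessibility was not used by the rule, and the share of members with a peak was intermediate as well. An ATAC peak of the consensus set lay within 500 bp of the start at 72.6% of members, against 98.8% of bivalent promoters, 97.3% with H3K4me3 alone and 23.6% with neither. Where a peak was present, its median summed signal in members was 5.68 to 6.03 CPM (counts scaled by library size) over the 6 libraries, below that of promoters with neither mark and a peak (6.46 to 6.85), bivalent promoters (16.1 to 17.2) and those with H3K4me3 alone (29.5 to 31.6), with no overlap between the libraries of members and any of these. Members with more H3K4me3 had a peak more often, at 41.6% below 2, 83.9% from 2 to below 5, and 94.97% at 5 or more. By H3K27me3 quartile the shares were 59.4%, 74.7%, 82.7% and 73.5%, with no single order.

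Few of these promoters changed in accessibility on refeeding. Of 123372 peaks, 273 (0.221%) differed between OCRRF and OCR at an adjusted p below 0.05, a fold above 1.5 and a mean log2 CPM above 1.5 (edgeR quasi-likelihood test, Benjamini-Hochberg adjustment). Of 1471 peaks at member promoters, 1 did so, and it was lower (0.0908% of all peaks were). It lies at the start of Trhde, a peptidase of thyrotropin-releasing hormone, and of the noncoding Gm15723 (chromosome 10, 114800381 to 114802553). It read 11.6, 17.6, 13.2 and 11.9 CPM in OCR and 7.06 and 10.2 in OCRRF, which do not overlap, and fell by 0.66 ± 0.16 on the log2 scale (SE, adjusted p = 0.0447), but the call was lost in 3 of the 6 fits without a library (adjusted p = 0.497 without OCRRF replicate 1, 0.205 without OCR replicate 2 and 0.0655 without OCR replicate 3). At the adjusted p alone 7 member peaks passed (0.476%, against 0.525% of all peaks), 5 lower (Draxin, Kcnh4, Neto1, Iqsec3 and Trhde) and 2 higher (Sox17 and Nxph1), where over all peaks 435 were higher and 213 lower. That of the axon guidance gene Draxin read 26.3, 24.1, 25.9 and 24.7 CPM in OCR and 17.1 and 18.2 in OCRRF (log2 change -0.52 ± 0.10, adjusted p = 0.00778). That of Sox17 read 46.5, 47.6, 44.4 and 53.5 CPM against 63.2 and 58.5 (0.34 ± 0.07, adjusted p = 0.0201).

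PU.1, the transcription factor of myeloid and B cell lineages, was rarely called at these promoters or at bivalent ones. Called peaks lay within 1000 bp of 4 to 14 of the 2263 members in each of the 6 libraries (0.177% to 0.619%). The shares were 0.376% to 0.977% of bivalent promoters, 3.60% to 9.42% of promoters with H3K4me3 alone, 0.588% to 1.60% of those with neither mark, and 1.90% to 5.02% of all. Over the 6 libraries 19 member promoters (15 genes) had a peak in at least 1, and 2244 had none. Those of Nkain3 and Gm19774 (3 promoters in all) had 1 in every library of OAL, OCR and OCRRF. Peaks were called in each library on its own, and the libraries differ in the number called, so a member without a peak may hold PU.1 below the calling threshold.

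RNA of member genes was near the level of genes that are not expressed in blood. Over 1715 member genes found in the RNA tables, the median was 0.632, 0.495, 0.935 and 0.599 CPM in the 4 OCR libraries and 0.573, 0.509, 0.664 and 0.632 in OAL. From 26.1% to 46.6% of them were at 1 CPM or more in an OCR library, against 97.0% to 97.4% of genes with H3K4me3 alone. The 1730 olfactory and vomeronasal receptor genes give the background, since HSCs have no known use for them. Their median was 0.233 to 0.436 CPM in OCR libraries, so reads fall on silent genes too, and the libraries of OCR replicate 3 and of OCRRF had the most. Per kilobase of exon, the scale on which levels of different genes can be compared, the median of members was 0.142 to 0.277 CPM in OCR, against 0.0785 to 0.165 for receptor genes, 0.134 to 0.270 for genes with neither mark, 0.196 to 0.354 for bivalent genes and 8.31 to 9.85 with H3K4me3 alone. In young libraries both members and receptor genes were lower. Members had a median of 0.119, 0.129, 0.0608 and 0.111 CPM in YAL, and 0 to 0.288 in YCR and 0 to 0.242 in YCRRF, and the receptor median was 0 in all 4 YAL libraries.

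**Figure D4:**
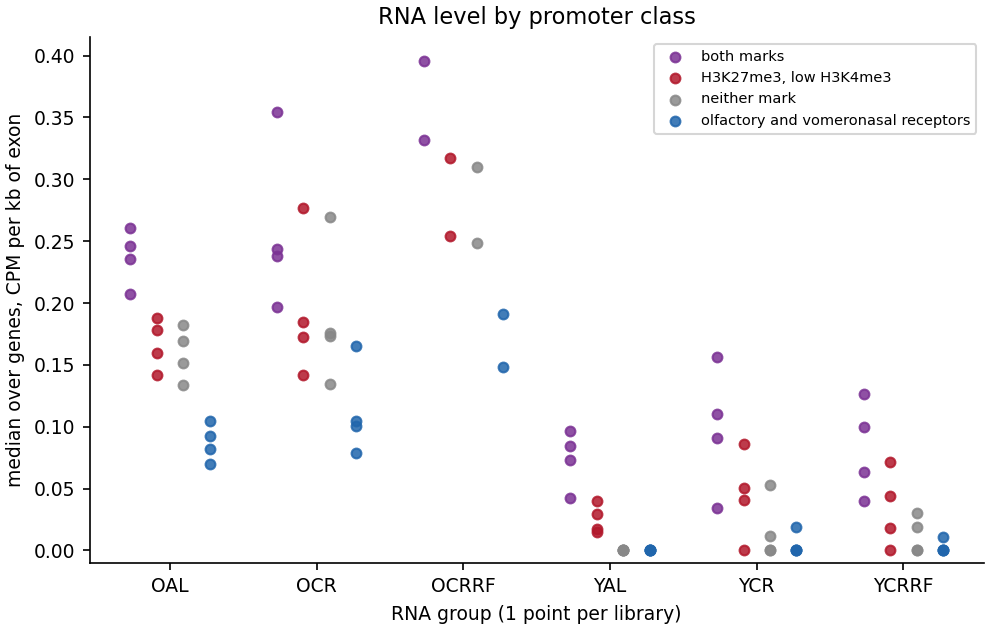
Median RNA level over the genes of each group (y axis, CPM per kilobase of exon) in each library (points) of 6 RNA groups (x axis), for bivalent, member, neither-mark and olfactory and vomeronasal receptor genes. Members track genes with neither mark in the old groups, lie above receptor genes and below bivalent genes, and all 4 sets are lower in young libraries.

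To count genes with RNA above this background, each gene's level per kilobase was set against the 95th percentile of the receptor genes in the same library. Of 1704 member genes with a length, 155 (9.10%) were above it in every OCR library, fewer than of genes with neither mark (17.3%), bivalent genes (27.1%) and genes with H3K4me3 alone (96.4%). The number was 183 (10.7%) in OAL and 209 (12.3%) in OCRRF, which has 2 libraries, and 125, 106 and 90 in YAL, YCR and YCRRF. Above the 99th percentile in every OCR library were 74. The 155 genes had a median H3K27me3 of 3.70, against 4.50 for the other 1549, and median H3K4me3 of 3.92 against 3.40. Developmental regulators were 4 of the 155 (2.58%) and 143 of the other 1549 (9.23%). An ATAC peak lay at 69.0% of the former and 73.8% of the latter. Members with the highest H3K27me3 were above the background least often, at 11.0% to 12.9% of the highest quartile against 23.4% to 28.3% of the lowest across the 4 OCR libraries, with no overlap. Across the 3 ranges of H3K4me3 the shares overlapped, from 16.6% to 21.2% below 2 and from 17.9% to 20.6% at 5 or more.

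The levels of the classes are given in CPM, which is not scaled by exon length. On this scale a difference in level between classes cannot be told apart from a difference in exon length. HOX members had a median of 0.175 to 0.358 CPM over the OCR libraries, bHLH members 0.233 to 0.374, SOX members 0.175 to 0.436 and forkhead members 0.240 to 0.452, all below the 0.495 to 0.935 of all members. Other homeobox members were at 0.262 to 0.499, Wnt ligands at 0.408 to 0.779, PAX genes at 0.627 to 0.982 and the Zic, Gli, Osr, Sall and Tshz class at 0.787 to 1.85. Sox14 read 0.253, 0.0583, 0.436 and 0.360 CPM, Nkx2-1 0.126, 0.175, 0.249 and 0.120, and Cdx2 0.411, 0.0583, 0.374 and 0.479, which are 2 to 16 reads a library. The median collagen was at 1.57 to 2.96 CPM, the median ADAMTS protease at 1.49 to 3.02 and the median adhesion G protein-coupled receptor at 1.95 to 4.80, while clustered protocadherins were at 0.350 to 0.935.

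A few member genes had ample RNA. Mir6236, a microRNA gene, had the most, with 960, 821, 671 and 745 CPM in OCR, but these libraries do not isolate small RNA, so the reads count its locus and not the mature microRNA. Sox6 read 145, 115, 86.5 and 103 CPM in OCR. The tables list 6 of its transcripts, of which 2 were members, with H3K27me3 of 5.60 and 6.22 at the first and 3.49 and 2.79 at the other, so its RNA need not start at a member promoter. Myo1h read 89.7, 90.9, 84.7 and 92.0 CPM, Samd11 46.7, 49.9, 40.3 and 43.0, and Chrnb2 36.1, 36.3, 31.3 and 32.9. Myo1h, Samd11 and Chrnb2 varied little between libraries. Tcf20 averaged 32.5 CPM ± 2.75 (SD, n = 4), the fatty acyl-CoA reductase gene Far2 32.5 ± 0.930, and Fam57b 30.6 ± 3.09. Reads at Far2 are uncertain, because 38 of 40 stretches in its window had another copy in the genome. Whether the RNA of these genes comes from other start sites or from other cells in the sort was not tested.

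Few of these genes, most of them near background, passed between OCR and OAL. Between OCR and OAL, 18 of 1305 member genes tested passed an adjusted p below 0.05 with a fold above 1.2 (edgeR quasi-likelihood test), or 1.38%, against 5.57% of all 27150 genes tested. Among them 5 were higher in OCR (2.54% of all genes were) and 13 lower (3.03% of all). DESeq2 called 24 of 455 (5.27%, against 10.7% of all genes). In the edgeR fit an unadjusted p below 0.05 was found in 8.89% of members and 16.2% of all genes. The part of the members' low counts in these shares was not tested. By promoter group, 5.07% of tested bivalent genes, 10.3% with H3K4me3 alone and 3.35% with neither mark passed. The members' median log2 change was 0.19 beside 0.02 over all genes, while the receptor genes' median was 0.30, and without OCR replicate 3 the members' median was -0.03. All but 1 of the 18 were above the receptor background in every library of OCR or OAL. The summed level of 4 endothelial and stromal markers was also lower, at 17.1 to 21.7 CPM in OCR against 29.5 to 36.0 in OAL (27.9 to 31.7 in OCRRF), without overlap between OCR and OAL. Most of it was Emcn, the gene of endomucin, which HSCs express too (13.7 to 18.7 against 26.5 to 32.7 CPM). Cdh5, Cxcl12 and Lepr, at 2.43 CPM or less, overlapped, and the median of each was higher in OCR than in OAL. The lower sum thus came from Emcn and not from the other markers. The part of endothelial and stromal cells in the lower calls was not tested. In bulk libraries, fewer cells with the RNA and less RNA per cell cannot be told apart.

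Of the 5 higher genes, Synpo2, an actin-binding protein of muscle, changed most. It read 6.51, 5.16, 5.45 and 4.79 CPM in OCR and 2.35, 2.29, 2.72 and 1.74 in OAL, with no overlap (log2 change 1.28 ± 0.20 SE, adjusted p = 7.88e-05). Sox6 read 145, 115, 86.5 and 103 CPM against 78.1, 67.5, 65.2 and 69.9 (0.69 ± 0.11, adjusted p = 6.85e-05), and every OCR library was above every OAL library. Lgals3, which encodes the secreted lectin galectin-3, read 5.75, 8.04, 6.14 and 5.00 CPM against 3.33, 3.34, 4.46 and 3.25 (0.81 ± 0.19, adjusted p = 0.00690), and lost the call without OCR replicate 2 (adjusted p = 0.0539). Bsn, the presynaptic scaffold Bassoon, rose by 0.52 ± 0.15 (adjusted p = 0.0330) and lost the call in 7 of the 8 fits that left out a library.

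The lower genes were led by Prom2, a membrane protein of epithelial protrusions, with the smallest p of all members. It read 8.31, 10.6, 8.13 and 13.0 CPM in OCR and 31.7, 23.5, 24.0 and 25.4 in OAL (log2 change -1.37 ± 0.14, adjusted p = 1.08e-07), and every OAL library was more than any OCR library. Gabrd, the delta subunit of the GABA-A receptor, read 1.26, 1.37, 1.15 and 1.05 CPM against 3.53, 6.30, 1.61 and 2.65 (-1.52 ± 0.31, adjusted p = 0.00173). Its OAL libraries differed from each other by several fold while the OCR libraries were alike. Lrp3, of the LDL receptor family, read 2.18, 2.16, 3.12 and 2.70 CPM against 5.05, 5.69, 4.49 and 5.50 (-1.01 ± 0.20, adjusted p = 0.00129), and Tmem200b, a transmembrane protein, 1.26, 1.05, 1.53 and 0.959 against 2.24, 2.39, 2.47 and 3.43 (-1.12 ± 0.27, adjusted p = 0.00889). The call on Tmem200b was lost without OAL replicate 4 (adjusted p = 0.0712). Nkpd1 (-0.87 ± 0.26), C2cd4d (-0.80 ± 0.24), Fam189a2 (-0.80 ± 0.23) and the testis RNA helicase gene Ddx25 (-0.75 ± 0.22) passed at adjusted p of 0.0456, 0.0472, 0.0317 and 0.0379, and each lost the call in 6 or 7 of the 8 fits without a library. Of the other 5 lower genes, Zcchc14, Lrrc36 and the Notch pathway ligand Dlk1 had log2 changes of -0.71, -0.57 and -0.53, and each lost the call in at least 4 of the 8 such fits. Synpo2, Sox6, Prom2, Gabrd and Lrp3 held theirs in all 8.

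**Figure D5:**
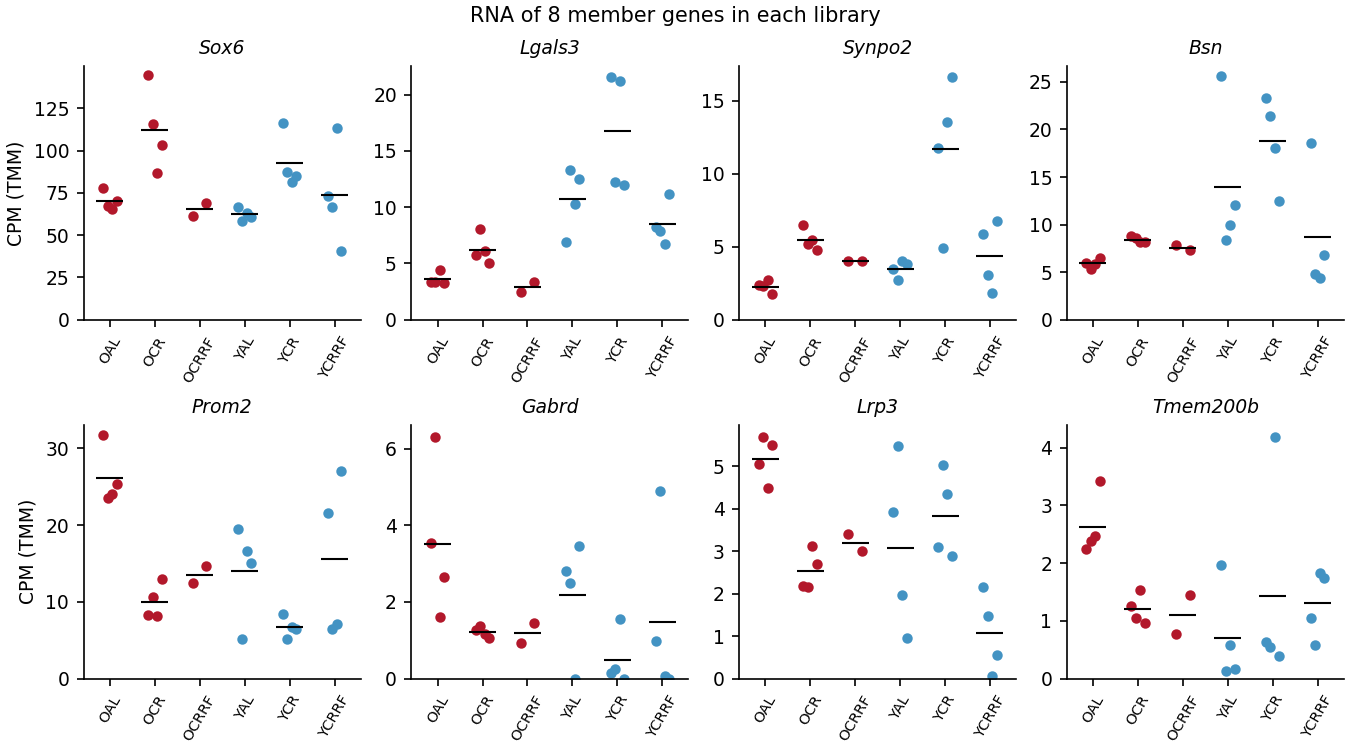
CPM (y axis, from 0) of 8 member genes in each library (points, with the group mean as a bar) of the old groups (red) and young groups (blue). OCR libraries lie above all OAL libraries in the upper row (Sox6, Lgals3, Synpo2, Bsn) and below them in the lower row (Prom2, Gabrd, Lrp3, Tmem200b).

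Refeeding was compared with the same OCR libraries, so the comparisons of OCR with OAL and with OCRRF are not independent. Between OCRRF and OCR, 10 of 1513 member genes passed (0.661%), against 3.41% of all 32577 genes. Among them 7 were higher (0.694% of all genes were) and 3 lower (2.71% of all). Among the lower genes, Lgals3 read 2.44 and 3.36 CPM in OCRRF (log2 change -1.11 ± 0.26, adjusted p = 0.00885) and Sox6 61.6 and 69.1 CPM (-0.78 ± 0.15, adjusted p = 0.000612). With a library left out, the adjusted p of Lgals3 was at most 0.284, without OCRRF replicate 1, and that of Sox6 at most 0.0410. Prom2, at 12.4 and 14.7 CPM, and Synpo2, at 4.04 and 4.01, did not pass (0.43 ± 0.19 and -0.44 ± 0.24, adjusted p = 0.225 and 0.356).

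The 7 higher genes were mostly at background. Pax5 read 2.47 and 3.39 CPM in OCRRF against 1.52, 0.729, 1.62 and 0.959 in OCR (log2 change 1.28 ± 0.36, adjusted p = 0.0380). Cald1, which encodes the smooth muscle protein caldesmon, read 4.54 and 4.33 against 1.30, 1.92, 3.27 and 2.098 (1.05 ± 0.30, adjusted p = 0.0450). Dlgap1, a synaptic scaffold, read 7.72 and 7.79 against 3.63, 2.86, 6.30 and 3.84 (0.90 ± 0.25, adjusted p = 0.0324) and the calcium channel gene Cacna1e 8.73 and 10.1 against 4.49, 4.49, 7.29 and 4.41 (0.87 ± 0.22, adjusted p = 0.0197). None of these 4 overlapped, and each lost the call in 5 of the 6 fits without a library. The others were Atcayos, Dixdc1 and Trpm3. Of the 7 higher genes 1 was above the receptor background in every library of a group. Receptor genes had a median log2 change of 0.57 and members of 0.51 in this comparison. Without OCR replicate 3, 129 of 1475 member genes tested were called (8.75%, beside 8.81% of all genes). Of these, 125 were higher (8.47% of members tested, against 3.06% of all genes) and 4 lower (0.271%, against 5.75%). The part of the background in these calls was not tested.

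Short-term restriction of young mice gave no call among the members. Between YCR and YAL, 0 of 465 member genes tested passed with edgeR, against 0.364% of all 18680 genes. At an unadjusted p below 0.05 there were 23 (4.95%, against 9.29% of all genes), and DESeq2 called 10 (1.53%, against 2.56%). Of the genes that passed in old HSCs, Synpo2 read 11.8, 4.92, 13.5 and 16.6 CPM in YCR and 3.45, 2.70, 4.01 and 3.79 in YAL (log2 change 1.77 ± 0.37, adjusted p = 0.0952). Sox6 read 116, 87.2, 81.4 and 84.97 CPM against 66.8, 58.4, 63.3 and 60.5 (0.59 ± 0.13, adjusted p = 0.114). Both were higher in all 4 YCR libraries than in any YAL library without passing the threshold. Prom2 read 8.42, 5.10, 6.67 and 6.51 CPM against 19.4, 5.15, 16.7 and 15.0 (-1.06 ± 0.38, adjusted p = 0.383), with 1 YAL library among the YCR values. Whether the responses of old and young HSCs differ was tested in 1 fit of the 4 groups, which gave 0 of 1358 member genes with edgeR, against 0.0318% of all 28328, with 116 at an unadjusted p below 0.05 (8.54%, against 8.80% of all) and 11 by DESeq2 (0.807%, against 0.8288%). For Synpo2 that difference was -0.49 ± 0.45 and for Prom2 -0.31 ± 0.41 (adjusted p = 0.869 and 0.932).

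With age, called member genes were mostly higher in OAL, as were called receptor genes. Between OAL and YAL, 171 of 1032 member genes passed (16.6%), against 14.8% of all 23525 genes. Among them 161 were higher in OAL (6.89% of all genes were) and 10 lower (7.93% of all). The median log2 change was 1.42 in members, 0.05 over all genes and 1.81 in receptor genes, of which 112 of 438 tested were called higher and none lower. Only 13 of the 161 higher genes, but all 10 lower ones, were above the receptor background in every library of OAL or YAL. The largest increases at 1 CPM or more were in Abcc8 (3.59 ± 0.74, adjusted p = 0.0104), Nfasc (3.44 ± 0.49, adjusted p = 0.00202), Pappa2 (3.41 ± 0.73, adjusted p = 0.0123) and Dysf (3.18 ± 0.57, adjusted p = 0.00625). These were counted at 52 to 99 reads in each OAL library and 0 to 11 in each YAL library. Those lower in OAL were led by the protease gene Prss50 (-3.05 ± 0.63, adjusted p = 0.0108), the matricellular Ccn3 (-2.98 ± 0.69, adjusted p = 0.0172), 6330403K07Rik (-1.60 ± 0.40, adjusted p = 0.0237) and Lgals3 (-1.53 ± 0.26, adjusted p = 0.00464). With a library left out, the call was lost in 4 of 8 fits for 6330403K07Rik (adjusted p up to 0.0821), in 3 for Ccn3 (up to 0.0609) and in 1 for Pappa2 (0.0504). Lgals3 read 6.90, 13.3, 10.3 and 12.5 CPM in YAL, above every OAL library. Ccn3, whose YAL libraries held 12, 144, 156 and 162 reads against 9 to 36 in OAL, overlapped between the groups. The part of the higher background of the old libraries in these calls was not tested.

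In the transplanted HSCs, Kdr itself read 1.93, 2.22, 3.29 and 2.03 CPM with its short hairpin RNA and 6.03 and 6.03 CPM with the scrambled one, lower in all 4. Between these groups, 0 of 326 member genes passed with edgeR, against 0.0149% of all 20098 genes. At an unadjusted p below 0.05 there were 32 (9.82%, against 8.90% of all genes), and DESeq2 called 3 (2.36%, against 1.69%). Between 6.53% and 7.35% of member genes were at 1 CPM or more in these 6 libraries, below the shares in the sorted HSCs of OCR mice. The receptor genes were lower too, at 0.289% to 0.462% against 4.39% to 18.2% in OCR. Native and transplanted libraries were scaled apart, and by the study's methods were sorted by other markers and sequenced on other instruments. The lower shares are therefore not particular to members.

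The native RNA libraries held 11102898 to 36579392 counted reads, those of transplanted cells 35657999 to 44780217, and the ATAC libraries 15721335 to 19558148. No 2 replicates agreed within sampling noise. All 7 HSC markers were present in each group, with a summed level of 2548 to 3572 CPM, beside 21.1 to 335 CPM for markers of lineage-positive cells gated out (23.0 to 50.7 in OCR) and 17.1 to 56.3 CPM for 4 endothelial and stromal markers. No gene of these lists was at 0 in all libraries of a group.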

How the data were processed

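For each transcript the authors deposited a promoter signal, the mean coverage per base from libraries that the study's methods describe as normalized to 10 M reads, although whether these deposited values are on that scale is not stated (reads trimmed with cutadapt, aligned to mm10 with BWA). RNA read counts per gene (STAR, featureCounts, 1 file per library) and ATAC read counts per consensus peak were also deposited unnormalized by the authors. For PU.1 the authors deposited MACS2 peaks called per library, with a fold enrichment ratio and −log10 p-values and q-values, of which positions and q-values were used. Whether RNA counting used strand is not given in the sources used here, so antisense pairs such as Hoxa11os and Hoxa11 cannot be told apart in RNA.

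Counts were tested with edgeR 4.0.16 in R 4.3.3 (quasi-likelihood, TMM, library sizes over all genes, features low in all groups removed), with Benjamini-Hochberg adjustment over all features. RNA calls needed an adjusted p below 0.05 and a fold above 1.2. DESeq2 1.42.0, other filters, left-out libraries and a replicate block were the alternatives. CPM values are TMM-scaled. In simulated data with 200 genes of 26033 changed 2-fold, drawn from all of these and not from members, the OCR versus OAL fit recovered 59.5% with 13 false calls. The histone values are scaled signals without the reads behind each promoter, so no counting interval is given. The study gives its RNA groups as numbers of mice, while the labels number only the libraries and do not say whether cells were pooled, so p-values measure the spread between these libraries.

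The members, gene classes and tests were chosen with earlier results of these data known. Genes are named where they ranked in the first 10 by H3K27me3 or by OCR RNA, in the first 8 (OCR versus OAL) or 4 (other RNA comparisons) called genes per direction at a mean of 1 CPM or more, in the first 2 of a class, or next to a limit. The other called genes, the members of classes with fewer than 3, the accessibility peaks and the genes in runs were named after their values were seen. Some genes that these rules select are not reported here.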

Additional observations from a re-analysis of the deposited data

Results flagged for a closer look

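In groups of 4 libraries, 7 of 94 values had 1 library far from the other 3 (past Dixon's 95% critical value), where chance gives about 1 in 20. The median CPM of receptor genes was 0.0641 in 1 YCR library and 0.0693 in 1 YCRRF library and 0 in the others of each group, and the share of receptor genes at 1 CPM or more was 8.55% in 1 YCRRF library and at most 2.66% in the others. Prss50 read 0.722 CPM in 1 OAL library and at most 0.201 in the others. In YAL, 6330403K07Rik read 8.13 CPM in 1 library and at most 3.57 in the others. Lgals3 read 4.46 CPM in OAL replicate 3 and at most 3.34 in the others. Cacna1e read 7.29 CPM in OCR replicate 3 and at most 4.49 in the others.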

How the results depend on the processing

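With an H3K4me3 limit of 5 in place of 10 there were 1393 members, and with the rule read in 1 replicate alone 2416 to 2522. The RNA level of members, a median of 0.616 CPM over OCR libraries, was 0.616 under either of the latter. An ATAC peak lay within 1000 bp of 79.3% of members, and a PU.1 peak within 500 bp of 0.0810% on average over the 6 libraries, against 0.317% within 1000 bp. Chosen after seeing the data, the 99th percentile of the receptor genes left 74 member genes above background, and calls limited to genes above the 95th numbered 4 for OCRRF versus OCR and 23 for OAL versus YAL. With a library left out, member calls ran from 9 to 18 for OCR versus OAL (11 without OCR replicate 1 or 2, 10 without OAL replicate 1, 9 without OAL replicate 2 or 4), from 2 to 129 for OCRRF versus OCR, from 52 to 376 for OAL versus YAL (278, 314, 264 and 376 without YAL replicates 1 to 4, and 57, 81, 61 and 52 without OAL replicates 1 to 4), from 0 to 2 for ATAC, and were 0 throughout for YCR versus YAL, for the difference in response and for the Kdr knockdown. For OCRRF versus OCR they were 2 and 3 without OCRRF replicates 1 and 2, and 4, 3, 129 and 6 without OCR replicates 1 to 4. For OCR versus OAL, calls with a library left out were 0.645% to 1.34% of members tested, against 3.73% to 5.96% of all genes. For OAL versus YAL they were 22.5% to 31.7% without a YAL library (18.7% to 20.9% of all genes). Without an OAL library they were 4.96% to 7.21% (6.11% to 7.56% of all genes). Without a filter on low counts, YCR versus YAL had 10 member calls (0.608%, against 0.841%) and OAL versus YAL 340 (20.0%, against 13.1%). The Kdr knockdown had 3 (0.309%, against 0.263%) and ATAC 0 peaks (against 0.184%). ATAC peaks at the adjusted p alone numbered 7 (0.476%, against 0.525%). DESeq2 called 10 for YCR versus YAL, 565 for OAL versus YAL, 11 for the difference in response and 3 for the knockdown. A minimum of 10 counts in every library left 29 for OAL versus YAL (18.7%, against 12.3% of all genes). The cause of these changes was not tested.

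Replicate numbers did not pair the samples (correlations of deviations from -0.119 to 0.145). With the replicate block there were 67 member calls for OCRRF versus OCR (4.68% of members tested, against 9.54% of all genes). There were 47 for OAL versus YAL (4.55%, against 7.02%), 17 for OCR versus OAL (1.30%, against 5.27%) and 3 ATAC peaks (0.207%, against 0.648%). These fits kept only replicate numbers present in both groups. Those of OCRRF versus OCR, for RNA and ATAC, thus left out OCR replicates 3 and 4, so the block and the change of libraries cannot be told apart there.

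Over all genes, for OCRRF versus OCR, DESeq2 called 2391 and the replicate block, with fewer OCR libraries, 2889, against 1110. For YCR versus YAL there were 527 with DESeq2, 368 without a filter, 102 with at least 10 counts and 7 with the block, against 68. For OAL versus YAL there were 7955, 6671, 1852 and 1651 in the same order, against 3486.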
